A study of Mus musculus with 12 samples.

Results

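Dazl, Ddx4, Slc25a31 and Dmrtb1 are 4 mouse genes whose best known work is done in germ cells, read here in embryonic stem cells that carried, lacked or had been given back the chromatin proteins Dppa2 and Dppa4. They were chosen by name out of 22180 genes with a probe set of their own, because earlier readings of these arrays showed them lower without Dppa2 and Dppa4 and higher again after add-back. Their differences between knockout and parental cells and between add-back and knockout cells are therefore given as descriptions, with no test. All 4 were found, each with 1 probe set that named no other gene, and no filter on low signal was applied.

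RNA was measured on 12 Affymetrix arrays in 4 groups of 3. KO+Mut cells were Dppa2/4 knockout cells given plasmids for SUMO-deficient Dppa2 and Dppa4 fused to GFP, KO+WT cells were the same knockout cells given wild-type Dppa2 and Dppa4 fused to GFP, KO cells had neither plasmid, and parental cells had both genes intact. All 4 groups carried the MERVL::tdTomato reporter and were grown in serum replacement with LIF on gelatin. SUMO is a small protein joined to other proteins after translation, and MERVL is an endogenous retrovirus active in embryos at the 2-cell stage. Only the add-back cells were lipofected and sorted for GFP as far as the labels say, so those steps and the add-back cannot be told apart in any comparison with KO or parental cells, while KO+Mut and KO+WT are matched for them. The labels do not say whether the KO cells were 1 clone, nor whether the array probes for Dppa2 and Dppa4 fall inside the deletion. Dppa2 averaged 8.48 ± 0.31 in KO and 9.77 ± 0.41 in parental cells (log2 signal, n = 3 each, SD; limma adjusted p = 0.0259), a call lost without any of its arrays except parental replicate 1 (adjusted p of up to 0.139), and Dppa4 averaged 7.62 ± 0.30 in KO against 8.46 ± 0.19 in parental cells (adjusted p = 0.102). The arrays of a group are called biological replicates and nothing more is said of them, so each p-value rests on a spread between replicates of unstated kind. In the main fit that spread was pooled over the 4 groups and moderated across genes by limma.

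Dazl encodes an RNA-binding protein that promotes translation in germ cells and is needed for them to enter gametogenesis. Ddx4, the mouse homologue of Drosophila vasa, encodes a DEAD-box RNA helicase of the germ granule that acts in the piRNA pathway against transposons. Slc25a31, also called Ant4, encodes the mitochondrial ADP/ATP carrier of male germ cells, and Dmrtb1, also called Dmrt6, encodes a DM-domain transcription factor of spermatogonia that are turning from mitosis to meiosis. In embryonic stem cells and somatic cells such genes are held down at CG-rich promoters by DNA methylation and by a variant Polycomb complex that holds PCGF6, MGA, MAX, L3MBTL2 and E2F6. Dppa2 and Dppa4 are DNA-binding partners of early embryos and pluripotent cells, known to activate genes of the 2-cell stage and to keep some developmental promoters free of DNA methylation.

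The promoters are shown because CG content is the feature by which germline promoters are usually described. Each line below gives the 250 bases just upstream of a RefSeq start site on the gene's own strand, with every CG dinucleotide in capitals.
Dazl, minus strand, chr17:50293621-50293870: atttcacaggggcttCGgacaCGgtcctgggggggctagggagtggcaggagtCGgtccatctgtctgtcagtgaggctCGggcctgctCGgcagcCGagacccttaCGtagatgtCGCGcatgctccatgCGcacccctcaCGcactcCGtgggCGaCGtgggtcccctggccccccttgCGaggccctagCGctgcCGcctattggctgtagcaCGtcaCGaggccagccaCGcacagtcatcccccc
Ddx4, minus strand, chr13:112652311-112652560: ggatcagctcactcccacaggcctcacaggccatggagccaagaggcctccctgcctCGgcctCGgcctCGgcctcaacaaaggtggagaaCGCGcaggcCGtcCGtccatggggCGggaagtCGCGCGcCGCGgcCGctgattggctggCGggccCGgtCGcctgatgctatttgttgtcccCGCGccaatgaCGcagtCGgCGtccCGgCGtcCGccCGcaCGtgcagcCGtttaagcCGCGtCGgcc
Slc25a31, plus strand, chr3:40708621-40708870: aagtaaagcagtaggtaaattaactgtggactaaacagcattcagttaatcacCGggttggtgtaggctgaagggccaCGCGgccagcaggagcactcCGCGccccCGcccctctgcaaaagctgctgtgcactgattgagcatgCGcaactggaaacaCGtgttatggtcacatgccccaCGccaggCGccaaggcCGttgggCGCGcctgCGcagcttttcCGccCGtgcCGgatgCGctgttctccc
Dmrtb1, minus strand, chr4:107684231-107684480: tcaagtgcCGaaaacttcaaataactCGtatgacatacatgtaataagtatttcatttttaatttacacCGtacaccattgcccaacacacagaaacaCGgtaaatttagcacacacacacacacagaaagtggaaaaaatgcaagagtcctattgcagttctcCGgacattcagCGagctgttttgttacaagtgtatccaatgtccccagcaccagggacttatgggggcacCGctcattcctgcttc
The sequences and positions are those of RefSeq on GRCm38.p6, in whose tables all 4 genes were found. Dazl spans chr17:50279393-50293620, Ddx4 chr13:112598333-112652633, Slc25a31 chr3:40708871-40726094 and Dmrtb1 chr4:107676288-107704011, so the Ddx4 and Dmrtb1 windows lie inside the annotated extent of their own gene. Which start site these cells used was not measured.

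The Ddx4 window held 31 CG dinucleotides, a number reached by 5.19% of 32851 such windows of 27025 genes. The Dazl window held 20 (reached by 17.95%) and the Slc25a31 window 18 (reached by 21.67%), against a median of 6 over all windows. The Dmrtb1 window printed above held 7, which 46.3% of windows reach, while the window of a second Dmrtb1 start site at position 107683589 held 21. Dazl, Ddx4 and Slc25a31 thus stood above the median, and for Dmrtb1 the count depended on the start site. Both motifs searched were chosen after the sequences had been seen, on both strands of the 300 bases from 250 before to 50 after a start site, whose first base counts as 0. CACGTG, the E-box letters that MAX pairs with other proteins to read, occurred in the Ddx4 window at bases -29 to -24 and in the Slc25a31 window at -93 to -88, and 7.15% of all windows hold it. GGCGGGAA, an E2F-type motif, occurred in the Ddx4 window at bases -137 to -130 and, on the other strand, in the Slc25a31 window at bases 19 to 26 after the start, and 2.19% of all windows hold it. The 2 motifs do not overlap each other, and neither was in the Dazl or Dmrtb1 windows, which says only that these letters are not there.

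Dazl signal (log2) was 6.91, 7.12 and 7.19 on KO+Mut replicates 1, 2 and 3, 6.77, 6.89 and 7.25 in KO+WT, 5.31, 5.02 and 5.49 in KO, and 6.39, 6.70 and 6.78 in parental cells. The 3 KO arrays were the lowest of the 12 and overlapped no other group. Group means were 7.07 ± 0.14 in KO+Mut, 6.97 ± 0.25 in KO+WT, 5.27 ± 0.24 in KO and 6.62 ± 0.20 in the parental line (mean ± SD, n = 3 each). KO cells were 1.35 below parental cells (log2, SE 0.17), a signal 39.3% of the parental one. KO+Mut cells were 1.80 and KO+WT cells 1.69 above KO cells (log2, SE 0.17 each), or 3.48-fold and 3.24-fold. Even in KO cells Dazl lay between percentiles 66.4 and 72.1 of the 41345 probe sets, against 80.4 to 83.5 in parental cells. In bulk RNA of this kind, fewer cells with the transcript and less of it in each cell cannot be told apart.

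Ddx4 signal (log2) was 5.77, 5.59 and 5.14 on KO+Mut replicates 1, 2 and 3, 5.44, 5.43 and 5.17 in KO+WT, 4.25, 3.96 and 4.08 in KO, and 5.60, 5.55 and 5.38 in parental cells. KO arrays again stood apart below the rest, and the arrays of the other 3 groups overlapped. Means were 5.50 ± 0.33 in KO+Mut, 5.35 ± 0.15 in KO+WT, 4.10 ± 0.15 in KO and 5.51 ± 0.12 in the parental line (n = 3 each, SD), the widest spread being that of KO+Mut. KO cells were 1.41 below parental cells (log2, SE 0.16), at 37.5% of the parental signal. Add-back cells were 1.40 (KO+Mut) and 1.25 (KO+WT) above KO cells, or 2.65-fold and 2.38-fold.

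Slc25a31 signal (log2) was 4.82, 4.88 and 4.84 on KO+Mut replicates 1, 2 and 3, 4.66, 4.81 and 4.79 in KO+WT, 3.66, 4.00 and 4.07 in KO, and 4.71, 4.74 and 4.58 in parental cells. KO replicate 1 was the lowest array and all 3 KO arrays lay under every other array. Means were 4.85 ± 0.03 in KO+Mut, 4.76 ± 0.08 in KO+WT, 3.91 ± 0.22 in KO and 4.67 ± 0.09 in the parental line (mean ± SD, n = 3 each). KO cells were 0.76 below parental cells (log2, SE 0.12), at 58.9% of the parental signal, and KO+Mut and KO+WT cells were 0.94 and 0.85 above KO cells, or 1.91-fold and 1.80-fold. Without KO replicate 1 these 3 differences were -0.64, 0.81 and 0.72.

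Dmrtb1 signal (log2) was 5.19, 5.02 and 4.83 on KO+Mut replicates 1, 2 and 3, 5.12, 4.82 and 4.81 in KO+WT, 3.88, 3.69 and 3.72 in KO, and 4.57, 4.59 and 4.67 in parental cells. The arrays formed 3 levels that did not overlap, KO lowest, parental between, and the 6 add-back arrays highest. Means were 5.01 ± 0.18 in KO+Mut, 4.92 ± 0.18 in KO+WT, 3.76 ± 0.10 in KO and 4.61 ± 0.05 in the parental line (mean ± SD, n = 3 each). KO cells were 0.84 below parental cells (log2, SE 0.13), at 55.7% of the parental signal. KO+Mut and KO+WT cells were 1.25 and 1.15 above KO cells, or 2.38-fold and 2.22-fold.

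**Figure D1:**
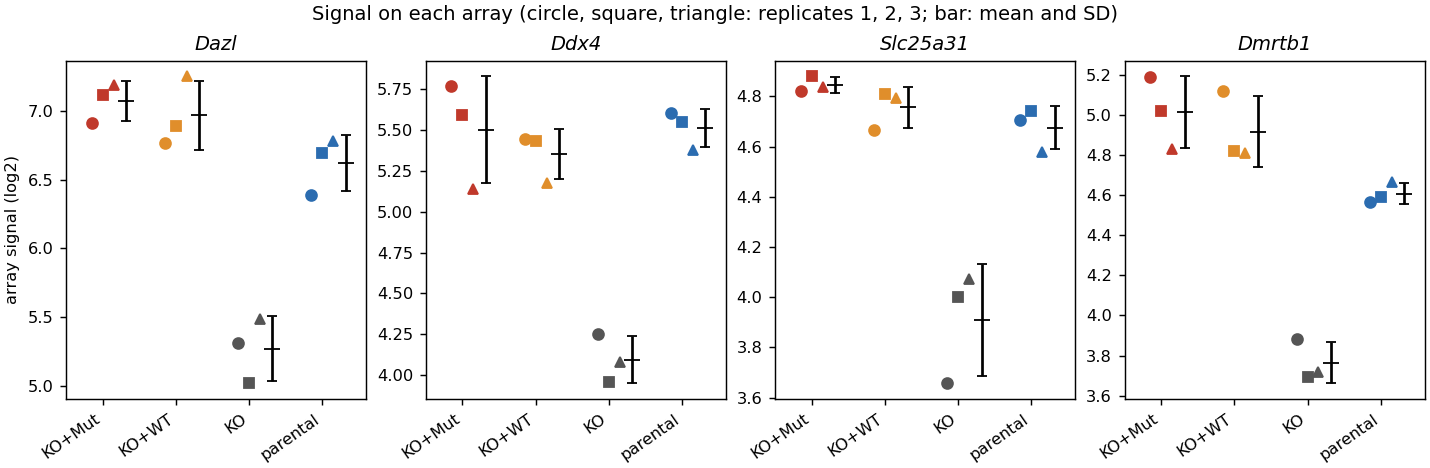
Array signal (log2, vertical axis, its range set per gene) of Dazl, Ddx4, Slc25a31 and Dmrtb1 in KO+Mut, KO+WT, KO and parental cells. Symbols mark replicates 1, 2 and 3, and bars the mean and SD. In each panel the 3 KO arrays lie below all others, by at least 0.51 from the nearest parental array.

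The 4 genes thus shared 1 pattern, which is the one they were chosen for. KO arrays lay below all parental arrays for 4 of 4 genes, as they did for 6.83% of all genes. Above the KO arrays lay all KO+Mut arrays for 4 of 4 genes (9.24% of all genes) and all KO+WT arrays for 4 of 4 (8.61% of all genes). These shares are printed as background only. Both add-back comparisons share the 3 KO arrays, so they are not independent of each other.

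Below that pattern the genes differed in the order of the other 3 groups. Dazl, Slc25a31 and Dmrtb1 ran KO+Mut, KO+WT, parental and KO from high to low, and Ddx4 ran parental, KO+Mut, KO+WT and KO. Above KO, the arrays of neighbours in these orders overlapped, except KO+Mut over KO+WT for Slc25a31 and KO+WT over parental for Dmrtb1. The arrays with the same replicate number also differed alike: the array numbered 3 was the highest of its group for Dazl in 4 of 4 groups, and the array numbered 1 was the highest for Ddx4 in 4 of 4 and for Dmrtb1 in 3 of 4. For Slc25a31 the array numbered 1 was the lowest in 3 of 4 groups.

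The share of the KO fall that an add-back recovered was its rise over KO cells divided by the distance from KO to parental cells, both in log2. A share of 100% means the parental level, and a 95% interval was taken by Fieller's method from the variance of the fit. The groups in this ratio are those the genes were chosen on, so the intervals show precision and test nothing, and a choice of genes with low KO and high add-back values can move the share. For Dazl the share was 133.5% with mutant add-back (interval 105.9 to 173.9%) and 125.7% with wild-type add-back (99.1 to 164.0%). For Ddx4 it was 99.3% with mutant (76.9 to 128.1%) and 88.7% with wild-type add-back (66.9 to 115.5%). Dazl was thus above the parental mean with both add-backs. Ddx4 was below it with wild-type add-back and close to it with mutant add-back. On the linear signal the Ddx4 shares were 101.2% with mutant and 83.4% with wild-type add-back.

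Slc25a31 recovered 122.3% with mutant (89.0 to 176.1%) and 110.6% with wild-type add-back (78.6 to 159.7%). Dmrtb1 recovered 148.1% with mutant (112.7 to 207.7%) and 136.7% with wild-type add-back (103.0 to 191.7%), the highest of the 4 genes with each add-back. With single add-back arrays set against the group means of KO and parental cells, the shares ran over 121.4 to 142.2% (KO+Mut) and 110.9 to 146.6% (KO+WT) for Dazl, and over 73.6 to 118.5% and 76.2 to 95.3% for Ddx4. Slc25a31 gave 119.0 to 126.8% in KO+Mut and 98.6 to 117.7% in KO+WT, and Dmrtb1 126.6 to 168.8% in KO+Mut and 124.2 to 160.8% in KO+WT. Only single arrays of Ddx4 and Slc25a31 thus fell short of the parental mean. On the linear signal the Dazl shares were 159.8% and 145.6% and the Dmrtb1 shares 174.9% and 155.4% for KO+Mut and KO+WT.

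Other genes that fell in KO cells recovered other shares in the same arrays. The germline transcription factor gene Sohlh2 recovered 32.9% in KO+Mut (13.7 to 50.5%) and 32.1% in KO+WT (13.0 to 49.8%), and the synaptonemal complex gene Syce1 53.9% (26.2 to 82.4%) and 52.4% (24.6 to 80.7%). The splicing factor gene Prpf39 recovered 5.9% in KO+Mut (-3.5 to 14.5%) and -8.0% in KO+WT (-18.2 to 1.1%). Zscan4e, a gene of the 2-cell stage, recovered 205.1% in KO+Mut and 192.7% in KO+WT, and the deubiquitinase gene Usp17le 247.2% and 234.5%. On the linear signal the shares in KO+Mut and KO+WT were 16.2% and 16.5% for Sohlh2, 39.9% and 40.6% for Syce1, 2477% and 1854% for Zscan4e, and 2325% and 1853% for Usp17le. These genes, Sohlh2 and Syce1 of the germline among them, were picked for comparison with their values known. Their distance from the 4 chosen genes is thus no result.

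**Figure D2:**
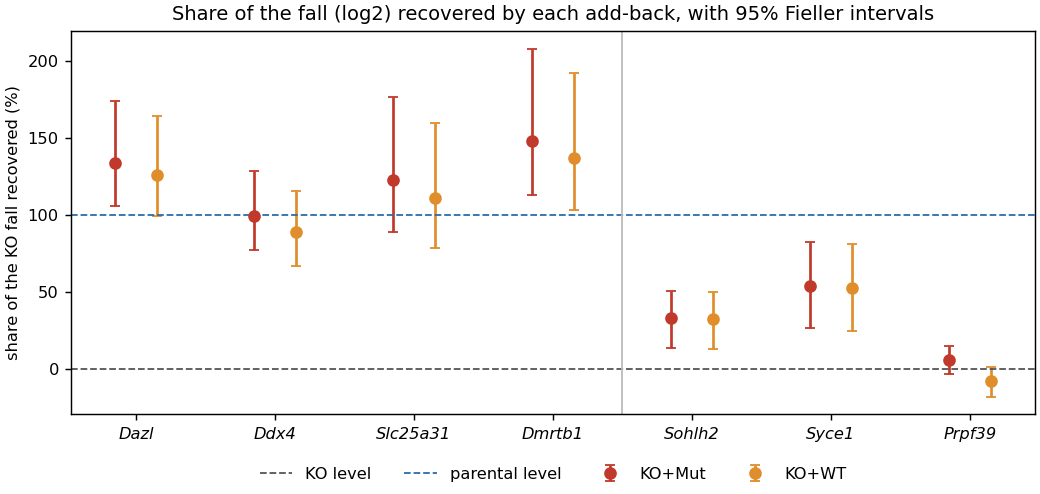
Share of the KO fall (log2) recovered by mutant and wild-type add-back, in percent, with 95% Fieller intervals, for the 4 germline genes at the left of the vertical line and Sohlh2, Syce1 and Prpf39 at its right. Dashed lines mark the KO level (0%) and the parental level (100%). The 4 genes at the left lie between 88.7% and 148.1%, and the 3 at the right between -8.0% and 53.9%. Of those at the right, Sohlh2 and Syce1 are germline genes too. Zscan4e and Usp17le, not drawn, had shares from 192.7% (Zscan4e in KO+WT) to 247.2% (Usp17le in KO+Mut).

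The comparison of the add-backs asked whether loss of SUMO attachment changed the activity of Dppa2 and Dppa4. This difference was not itself used to choose the genes. Both add-back groups entered the choice, however, and a choice of genes high in both can affect their difference. KO+Mut was above KO+WT by 0.10 for Dazl (log2, SE 0.17, 95% interval -0.26 to 0.46), 0.15 for Ddx4 (SE 0.16, -0.20 to 0.50), 0.09 for Slc25a31 (SE 0.12, -0.18 to 0.36) and 0.10 for Dmrtb1 (SE 0.13, -0.18 to 0.38). None passed the test (limma adjusted p = 1 for each, unadjusted p from 0.370 to 0.542). The intervals allow differences of up to 0.50 (log2) in favour of the mutant and 0.26 in favour of the wild type. Summed over the genes, the signal was higher in KO+Mut in 10 of 12 pairs of arrays with the same number. Every gene was read on the same arrays, so these pairs are not independent of each other. The share of all genes with such pairs was not counted, so the 10 of 12 is a description and tests nothing. Only the Slc25a31 arrays of the 2 groups did not overlap, as was so for 3.07% of all genes, and they lay 0.01 apart. Over all genes 0 of 22180 (0%) passed at an adjusted p of 0.05 in limma, and 675 (3.04%) had an unadjusted p under 0.05.

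Against parental cells, KO+Mut was 0.45 higher for Dazl (log2, 95% interval 0.09 to 0.81), 0.41 higher for Dmrtb1 (0.13 to 0.69) and 0.17 higher for Slc25a31 (-0.10 to 0.44), and Ddx4 differed by -0.01 (-0.36 to 0.34). KO+WT was 0.35 higher for Dazl (-0.01 to 0.71), 0.31 for Dmrtb1 (0.03 to 0.59) and 0.08 for Slc25a31 (-0.19 to 0.35), and Ddx4 differed by -0.16 (-0.51 to 0.19). All arrays of KO+Mut lay above all parental ones for 3 of 4 genes, Ddx4 being the exception (8.63% of all genes), and those of KO+WT for 1 of 4, Dmrtb1 (8.05% of all genes). Both groups entered the choice of the genes, so no test is given and the intervals show only precision. On the same arrays Dppa2 itself was 1.42 and Dppa4 2.08 higher in KO+Mut than in parental cells (limma adjusted p = 0.00529 and 9.05e-05), and 1.31 and 1.93 higher in KO+WT (adjusted p = 0.0154 and 0.000253). The part of that surplus in the levels of the 4 genes was not tested. The Dppa2 call in KO+WT was lost without parental replicates 1 or 2 or KO+WT replicates 2 or 3, with adjusted p of up to 0.0772.

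**Figure D3:**
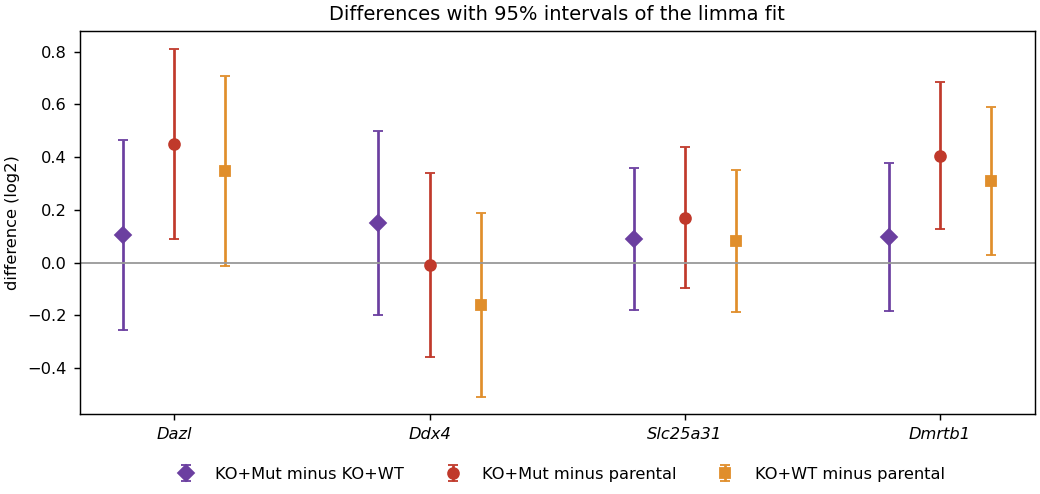
Differences (log2, vertical axis) of KO+Mut minus KO+WT, KO+Mut minus parental and KO+WT minus parental for the 4 germline genes, with the 95% intervals of the limma fit. Diamonds for KO+Mut minus KO+WT lie between 0.09 and 0.15 with intervals that hold 0, and the points against parental cells run from -0.16 for Ddx4 in KO+WT to 0.45 for Dazl in KO+Mut.

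The wider germline program was read in 5 lists of spermatogonial and oocyte regulators, meiotic genes, piRNA pathway genes, spermatid genes and testis isoforms of energy metabolism, with 97 of 102 genes measured. In KO cells 0 rose and 3 fell relative to parental cells by limma, against 0.0361% and 0.203% of all genes, and the median difference was -0.01. KO+Mut cells had 3 genes up and 1 down relative to KO cells (1.12% and 0.153% of all genes, median -0.02), and KO+WT cells 2 up and 1 down (0.73% and 0.0992% of all genes, median 0.03). All-gene medians were within 0.01 of 0 in these comparisons. At an unadjusted p under 0.05, 6 of the 97 were higher and 12 lower in KO cells, 15 higher and 13 lower in KO+Mut, and 16 higher and 8 lower in KO+WT, where 6.94%, 12.5% and 12% of all genes had such a p in either direction. After adjustment most genes of the program did not pass in either direction. At the unadjusted threshold the shares of the 97 genes were above those of all genes in each of these comparisons. That excess was not tested, and the lists were chosen with earlier results of these data known.

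Among 24 spermatogonial and oocyte regulators, Sohlh2 had 5.62, 5.82 and 6.31 in KO cells against 8.36, 8.31 and 8.71 in parental cells (log2), a fall of 2.54 (SE 0.24, limma adjusted p = 0.000384). It stayed below parental cells by 1.71 in KO+Mut and 1.72 in KO+WT (adjusted p = 0.00366 and 0.00491). Ret, the receptor through which spermatogonial stem cells read GDNF, rose by 1.91 in KO+Mut and 1.67 in KO+WT over KO cells (adjusted p = 0.00047 and 0.00198). Its KO difference of -0.55 did not pass (adjusted p = 0.567). Prdm14, a regulator of primordial germ cells and of pluripotency, fell by 0.70 in KO+Mut and 0.78 in KO+WT relative to KO cells (adjusted p = 0.0194 and 0.0148). The call in KO+Mut was lost without KO replicates 2 or 3 or KO+Mut replicates 1 or 2 (adjusted p of up to 0.107). That in KO+WT was lost without KO replicates 2 or 3 or KO+WT replicates 2 or 3 (up to 0.0783).

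Among 27 measured meiotic genes only Syce1 passed, with 4.05, 3.97 and 4.11 in KO cells against 5.14, 5.39 and 5.94 in parental cells (log2), a fall of 1.45 (SE 0.21, limma adjusted p = 0.0111). It was lost without parental replicate 2 or KO replicates 1 or 2 (adjusted p of up to 0.068). At an unadjusted p under 0.05 in limma, 4 meiotic genes were higher and 2 lower in KO cells (6.94% of all genes). Relative to KO cells, 2 were higher and 5 lower in KO+Mut (12.5%), and 2 higher and 3 lower in KO+WT (12%). Against KO, Stra8 fell by 0.80 in KO+Mut and 0.77 in KO+WT, and Hormad2 by 0.86 and 0.83. Under the replicate block Stra8 passed in both (limma adjusted p = 0.0041 and 0.00595). Hormad2 did not (0.0513 and 0.0668), but passed in KO+Mut with centred arrays. Of 21 measured piRNA pathway genes, those beside Ddx4 in its best known role, Tdrd12 fell by 0.93 in KO cells (adjusted p = 0.0489). No fit that left out 1 of its 6 arrays kept that call (adjusted p of up to 0.215), and the fit with the replicate number as a block gave 0.0521.

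The piRNA helicase gene Mov10l1 rose by 1.02 in KO+Mut and 1.03 in KO+WT over KO cells (limma adjusted p = 0.0172 and 0.024). Its KO difference of -0.79 did not pass (adjusted p = 0.167). The call in KO+Mut was lost without KO replicate 2 or KO+Mut replicates 1 or 2, and that in KO+WT without any of its arrays except KO+WT replicate 3 (adjusted p of up to 0.0955 and 0.106). The Tudor domain gene Tdrd6 rose by 0.89 in KO+Mut over KO cells (adjusted p = 0.0145), a call lost without KO replicates 2 or 3 or KO+Mut replicate 2 (up to 0.0898). Its rise of 0.75 in KO+WT had an adjusted p of 0.0537.

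Of 17 measured spermatid genes 0 passed in limma in KO cells or in either add-back relative to KO cells, and likewise 0 of 8 testis isoforms of energy metabolism, which like Slc25a31 supply germ cells with their own copies of metabolic proteins. At an unadjusted p under 0.05 the isoforms counted 1 lower in KO cells, 2 higher and 1 lower in KO+Mut, and 3 higher and 2 lower in KO+WT, and the spermatid genes 1 lower in KO cells, 2 higher and 2 lower in KO+Mut, and 2 higher in KO+WT, against 6.94%, 12.5% and 12% of all genes in KO, KO+Mut and KO+WT. The smallest adjusted p among them was 0.0525, for the ribosomal protein gene Rpl10l in KO cells (-0.68). With the replicate number as a block, Rpl10l (adjusted p = 0.0393) and the piRNA gene Mael (-0.84, 0.0445) passed in KO cells and Tdrd12 did not, so that 4 of the 97 genes fell.

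The closest relatives of the 4 genes gave other values. Boll, the other DAZ family gene measured, differed by 0.06 between KO and parental cells, and by 0.30 in KO+Mut and 0.10 in KO+WT relative to KO cells, none past the test. The ADP/ATP carriers of other tissues, Slc25a4 and Slc25a5, differed by -0.02 and -0.09 in KO cells, by -0.10 and -0.13 in KO+Mut and by -0.15 and -0.18 in KO+WT (smallest adjusted p = 0.510). Of 8 measured DEAD-box helicases 1 passed: Ddx25, a helicase of testis germ cells, fell by 0.86 in KO+Mut and 0.83 in KO+WT relative to KO cells (limma adjusted p = 0.00946 and 0.0163). The Ddx25 call in KO+WT was lost without KO replicates 2 or 3 or KO+WT replicate 1 (up to 0.0753). Its KO difference was 0.50 and did not pass (adjusted p = 0.323). Of 8 other DMRT genes 0 passed in these 3 comparisons by limma (1 at an unadjusted p under 0.05 in each). Dmrtc1b had the lowest KO difference, -0.48, and differed from KO cells by 0.13 in KO+Mut and -0.10 in KO+WT, while Dmrta1 differed by -0.38 in KO cells, and by 0.66 and 0.46 in KO+Mut and KO+WT relative to KO cells. Whether the 4 genes differed from these relatives in response was not tested.

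Genes known to hold the germline program down were read beside them. Of 25 repressor genes, among them those of the variant Polycomb complex and the DNA methyltransferases, 0 passed in limma in KO cells or in either add-back relative to KO cells (2, 0 and 0 at an unadjusted p under 0.05 in KO, KO+Mut and KO+WT), with medians of -0.04 in KO cells, -0.13 in KO+Mut and -0.09 in KO+WT. The de novo methyltransferase gene Dnmt3b had 6.67, 7.39 and 7.70 in KO cells against 7.53, 8.22 and 8.62 in parental cells (log2), a difference of -0.86 (limma adjusted p = 0.679) that passed with the replicate number as a block (adjusted p = 0.00439). It differed from KO cells by -0.13 in KO+Mut and -0.07 in KO+WT. Of 3 TET demethylase genes 0 passed (1 at an unadjusted p under 0.05, higher in KO cells). Levels of these RNAs say nothing of methylation at the promoters, which was not measured here.

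**Figure D4:**
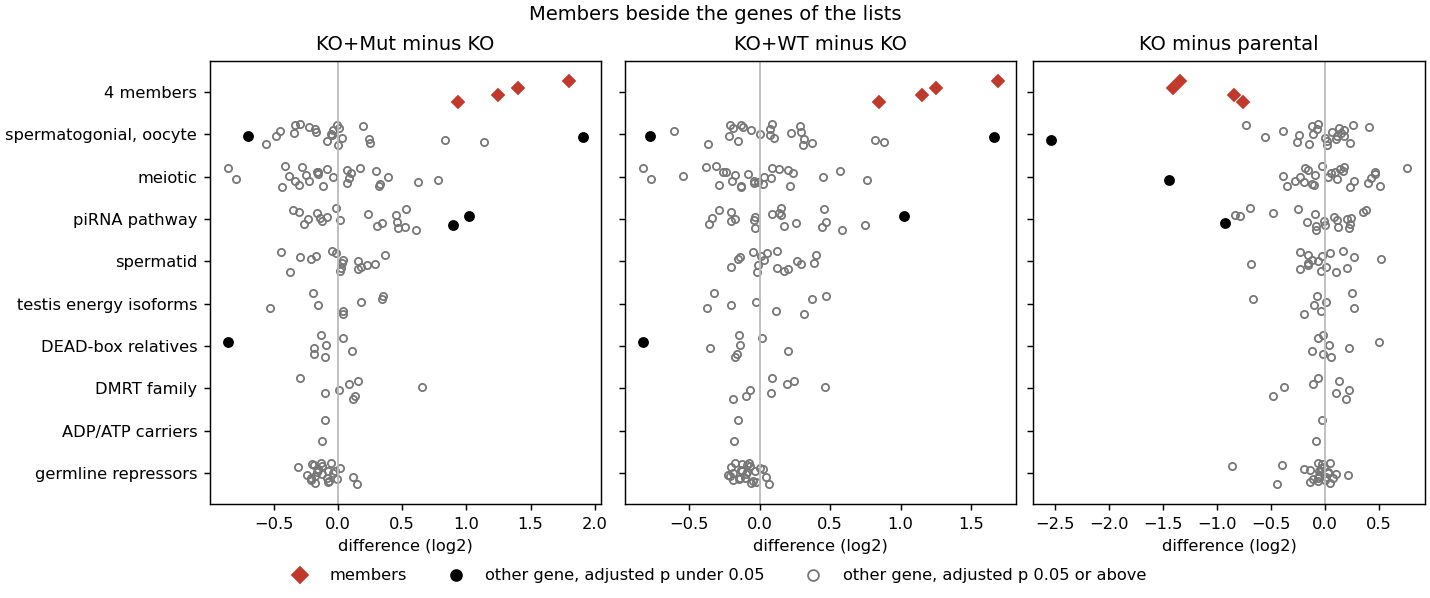
Differences (log2, horizontal axis) of KO+Mut minus KO, KO+WT minus KO and KO minus parental for the 4 germline genes (diamonds) and for the genes of 9 lists, 1 point per gene. Filled circles are genes with a limma adjusted p under 0.05. The 97 other germline genes, in the 5 lists under the diamonds, have medians of -0.02, 0.03 and -0.01, and 4, 3 and 3 of them are filled.

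Markers of cell types were read for the same arrays. The mean signal of 12 naive pluripotency genes ran over 8.73 to 8.83 (log2) on KO+Mut arrays, 8.80 to 8.83 on KO+WT, 8.86 to 8.99 on KO and 8.79 to 8.86 on parental arrays, and 0 of the 12 passed by limma in KO cells or in either add-back relative to KO (2, 3 and 2 at an unadjusted p under 0.05 in KO, KO+Mut and KO+WT). The naive mean was lower on every add-back array than on every KO array, and its part in the add-back values was not tested. That of the 17 spermatid genes ran over 3.51 to 3.58 in KO+Mut, 3.53 to 3.70 in KO+WT, 3.47 to 3.62 in KO and 3.51 to 3.64 in parental cells. By their mean over all arrays, 12 of them lay below the median probe set. The 9 measured fibroblast markers ran over 3.81 to 3.92 in KO+Mut, 3.82 to 3.95 in KO+WT, 3.63 to 3.81 in KO and 3.65 to 3.87 in parental cells, with 5 below the median probe set by their mean over all arrays. The fibroblast mean was thus higher on every add-back array than on every KO array, and its part too was not tested. No fibroblast gene passed in those comparisons by limma (1 at an unadjusted p under 0.05 in each). With the replicate number as a block, the receptor gene Pdgfrb (0.65 higher in KO than parental cells) had an adjusted p of 0.0331 and the surface protein gene Thy1 (0.52 higher in KO+Mut than KO cells) one of 0.0279.

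For each of the 4 genes the nearest genes were found by the root mean square difference between their values over the 12 arrays, each gene centred on its own mean, among 17417 named genes. Nearest to Dazl were the collagen prolyl hydroxylase gene P4ha2 (0.27, log2), Dmrtb1 (0.33) and the integrin adaptor gene Fermt1 (0.33). P4ha2 had 5.98, 6.40 and 6.43 in KO+Mut, 5.57, 6.21 and 6.13 in KO+WT, 4.84, 4.34 and 5.13 in KO and 5.31, 5.54 and 5.65 in parental cells. Nearest to Ddx4 were Dmrtb1 (0.25), the synaptic scaffold gene Homer2 (0.25) and Mov10l1 (0.26). Dmrtb1 and Mov10l1 are germline genes, but Dmrtb1 was chosen for this same pattern and Mov10l1 was listed with earlier results known.

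Nearest to Slc25a31 were Ugt8a, for an enzyme of galactolipid synthesis (0.15), the kinase gene Camk2b (0.15) and the Wnt inhibitor gene Nkd2 (0.16). Ugt8a had 5.51, 5.43 and 5.31 in KO+Mut, 5.31, 5.60 and 5.29 in KO+WT, 4.54, 4.47 and 4.69 in KO and 5.31, 5.01 and 5.17 in parental cells. Nearest to Dmrtb1 were the membrane skeleton gene Epb41l3 (0.17), Mov10l1 (0.18) and Eng, which encodes the TGF-beta co-receptor endoglin (0.19). Among the 4 genes themselves, Dmrtb1 had rank 1 as seen from Ddx4 and rank 2 as seen from Dazl, while Dazl had rank 5296 as seen from Slc25a31, whose differences were smaller. These distances are descriptions over arrays that share their groups and replicate numbers, and with distances over the 4 group means 0 of the 3 nearest genes of any of the 4 stayed the same.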

How the data were processed

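The deposited values were log2 signals, 1 per probe set and array, made and normalized by the authors with the Transcriptome Analysis Console, per the submitters' processing notes. Its version, the background correction and the build of the array are given in none of the sources used here. RNA had been taken with TRIzol and labelled with the Affymetrix WT Plus kit, per the labels' protocols. The log2 scale was inferred from how far the values reach, and low signals may be compressed by the authors' processing. No detection calls were used, so low values cannot be separated from background.

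Of 41345 probe sets, 23521 had 1 gene symbol, and the one with the highest mean stood for a gene, which left 22180 genes. Array medians were 3.73 to 3.88, lower quartiles 2.36 to 2.47, and pairs of arrays correlated with r of 0.976 to 0.994 across genes. No pair held identical values. The number of arrays limits the precision.

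Groups came from the sample titles. Differences were fitted in R 4.3.3 with the package limma 3.58.1 (lmFit, then eBayes, with 1 mean per group, all 12 arrays and 6 comparisons), with two-sided p-values adjusted by Benjamini-Hochberg over the 22180 genes and a threshold of 0.05; the fit was tested on simulated data. The members and lists were chosen with earlier results of these data known. Genes named were the 4 members, list genes past the threshold (up to 4 per list), relatives, comparison genes and the 3 genes nearest each member, without predicted, olfactory and small RNA genes. Dnmt3b, Rpl10l, Mael, Stra8, Hormad2, Pdgfrb, Thy1, Sox2 and Fgf4 lie outside this rule and were named after their values were seen.

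Same-numbered arrays deviated together with r over 0.1 in every pair for KO against parental cells (0.356, 0.153 and 0.417), for KO+Mut against KO+WT and for both add-backs against parental cells, so the numbers, which come from the titles, were taken to pair those arrays. The main fit left this pairing out, so its p-values and counts for those comparisons ignore it. A fit with the replicate number as a block was made as an alternative, and it called more genes in KO against parental cells. For KO+Mut and KO+WT against KO the second pair stayed below (0.082 and 0.064). Promoters were read from a RefSeq table of GRCm38.p6. Python 3.11.15 with pandas 2.3.3 and matplotlib 3.10.9 made the tables and plots.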

Additional observations from a re-analysis of the deposited data

How the results depend on the processing

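Over the replicate block, centring, repeated quantile normalization, averaged probe sets and each array left out, the differences of the 4 genes kept their sign in KO against parental cells and in both add-backs against KO cells, in 40 alternatives each. With a filter on dim genes, trended and robust variances and a fit of the 6 arrays compared added, the differences of KO+Mut minus KO+WT were positive in 52 of 52 alternatives, from 0.004 to 0.33 (log2), with a lowest limma adjusted p of 0.921 (under the replicate block), and the genes called between the add-backs numbered 0 in all 13 alternative fits. The block and averaged probe sets could not move any difference or share of these 4 genes, each with 1 probe set. The filter, the variance settings and the fit of 6 arrays could not move the differences either. The KO arrays of the 4 genes lay at least 0.51 from every array of the other groups. Leaving an array out, or centring arrays with medians of 3.73 to 3.88, thus could not turn the sign of their differences from KO cells. The counts of alternatives given here thus include settings whose outcome was fixed in advance. Of 120 alternative shares 116 moved by less than 1 SD between replicates, over 83.4 to 174.9%. Those that moved more were on the linear signal, 159.8% and 145.6% for Dazl and 174.9% and 155.4% for Dmrtb1 (KO+Mut and KO+WT). With an array left out the shares ran over 122.9 to 141.7% and 115.3 to 133.5% for Dazl, 89.7 to 112.2% and 84.8 to 94.9% for Ddx4, 115.1 to 127.8% and 104.1 to 116.6% for Slc25a31, and 137.8 to 158.9% and 124.6 to 142.9% for Dmrtb1, in the same order.

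Counts of calls depended on the fit. With the replicate block, the fit of 6 arrays and an array left out, the genes lower in KO than parental cells numbered 97, 26 and 18 to 29 (45 in the main fit), and those higher in KO+WT than KO 353, 71 and 80 to 154 (162). Those higher in KO+Mut than KO numbered 480 with the block and 109 to 192 with an array left out (248). Against parental cells the counts were 695 and 104 to 159 for KO+Mut (220), and 458, 52 and 51 to 131 for KO+WT (122). Under the block, 7 of the 97 other germline genes rose and 3 fell in KO+Mut relative to KO cells, and 6 rose and 2 fell in KO+WT. In these comparisons the arrays numbered 1 and 3 deviated together and those numbered 2 hardly did, so the pairing is not settled. The naive markers Sox2 and Fgf4 fell in KO+Mut under the block. In the fit of 6 arrays the calls of Prdm14 in both add-backs (adjusted p = 0.0936 and 0.0583), Mov10l1 in KO+WT (0.114) and Tdrd12 in KO cells (0.125) were lost. With centred arrays Tdrd12 was lost (0.0585). The causes were not tested. The 4 genes are given no test in the comparisons that chose them, so no stability of calls is claimed for them there. Between the add-backs none of the 4 passed under the block (limma adjusted p of at least 0.921). Signals near the arrays' lower quartiles cannot be told from background, and 3 arrays per group leave the differences between the add-backs open to about 0.50 (log2).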
